A study of Mus musculus with 4 samples.

Results

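Chemokines are small secreted proteins that direct the movement of white blood cells by binding receptors of the G protein-coupled family. They are named by the spacing of their first cysteines (CC, CXC, CX3C and XC), and each receptor is carried by a limited set of cells, so the ligands can be ordered by the cell they attract. In the intestine some are made steadily by the epithelium to draw lymphocytes into the mucosa, and others are induced during inflammation to bring in neutrophils and monocytes.

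RNA was sequenced from adenomas of the mouse small intestine. The PAF KO group (genotype PAF KO; APC Min/+) had 2 libraries and the WT group (APC Min/+ alone) had 2, so both groups carried the Min allele, a truncating mutation of the tumour suppressor Apc, and "WT" refers to PAF only. The altered part of the PAF gene, the strain, age and sex of the mice and the number of animals per library are not given in the labels. The p-values therefore measure only the spread between these libraries, which in the WT group may be technical. The values are FPKM, fragment numbers divided by transcript length and sequencing depth, so levels of different genes are compared per length. The chemokine system was taken as every row of the table whose symbol is that of a numbered CC, CXC, CX3C or XC ligand or receptor, which gave 57 of 29871 genes, 38 ligands and 19 receptors. Of these, 35 averaged 1 FPKM or more across the libraries and were tested, 17 lay below that mean, and 5 (Ccl19, Ccl21a, Ccl21b, Ccl21c and Ccl26) were listed at 0 in every library. The Ccl21 genes are near-identical copies of one another, and whether their values of 0 are failed estimates was not tested.

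PAF KO library 2 stood apart from the other 3 libraries. The row of Pclaf, taken from knowledge of the study as the PAF gene, read 4.13 and 11.4 FPKM in the PAF KO libraries, against 17.9 and 17.8 FPKM in the WT libraries. PAF KO library 2 held Xist at 46.4 FPKM and 0 FPKM of the Y-linked Eif2s3y, whereas the other 3 libraries held Eif2s3y at 26.0 to 31.7 FPKM, so sex differed within the PAF KO group. The PAF KO libraries thus came from different animals, and the spread between them cannot be told apart from a difference by sex. The PAF KO libraries differed from each other by a median of 0.49 on the log2(FPKM + 1) scale over all tested rows, and the WT libraries by 0.09. Depth, estimated from the smallest steps in the values, was about 15300000 and 24400000 fragments in the PAF KO libraries and 13400000 and 17800000 in the WT libraries. Epcam, an adhesion protein of the epithelial cells that form an adenoma, was high in all 4 libraries and read 945 and 1342 FPKM in the PAF KO libraries and 1006 and 946 FPKM in the WT libraries. Of 8 tested epithelial markers, Epcam among them, 2 were higher in both PAF KO libraries (Krt8 and Krt19) and 2 lower in both (Cdh1 and Vil1). Among all tested rows, 21.5% were higher in both and 30.2% lower in both.

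Of the tested genes, the monocyte attractants Ccl2 and Ccl7 had the highest fold changes on the log2(FPKM + 1) scale and Ccl5, an attractant of T cells and macrophages, the lowest. With smaller pseudocounts of 0.1 and 0.01, Ccl1 (-3.005 and -3.29) lay below Ccl5 (-2.31 and -2.32). By mean level in the PAF KO group, Ccl2 was the 5th most abundant of the 57 genes, against the 21st in the WT group, and Ccl5 was the 13th, against the 2nd. Ccl25, the small intestinal ligand of Ccr9, was the most abundant in both groups. No gene of the system passed the test: limma called 0 of 35 at an adjusted p under 0.05, where it called 0.0729% of all 13716 tested rows. Without PAF KO library 1 it called 26 of the 35, where it called 61.2% of all tested rows, and without PAF KO library 2 it called 16, where it called 20.7% of all tested rows, with the lone PAF KO library assumed to vary like the WT libraries. At an unadjusted p under 0.05, 5 genes were higher (14.3%, against 3.44% of all tested rows) and 3 were lower (8.57%, against 9.76% of all tested rows). Ccl7, with a mean of 6.92 FPKM in PAF KO and 0.363 FPKM in WT, was among the higher genes. Ccl1, with means of 0.660 and 4.76 FPKM, was among the lower. Both reached the mean for testing only through the group where they are high, and these shares do not allow for that. An exact permutation test of 2 against 2 libraries cannot give a 2-sided p below 0.333.

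Counted by overlap, 13 of the 35 tested genes were higher in both PAF KO libraries than in both WT libraries (37.1%, against 21.5% of all tested rows) and 5 were lower in both (14.3%, against 30.2%). The median log2 fold change, PAF KO minus WT, was 0.39 over the 35 genes and 0.00345 over all tested rows. A gene that passed the filter only through the group where it is high had to differ, so the count was also made without the filter: 16 of the 52 genes above 0 in some library were higher in both PAF KO libraries (30.8%, against 21.3% of all such rows), and 8 were lower (15.4%, against 24% of all such rows). The background moves with the scaling: after centring each library on its median, 15 of the 35 genes were higher and 4 lower (42.9% and 11.4%), against 30.2% and 25.6% of all tested rows. After rescaling each library to one total, which moves the median of all tested rows to -0.11, 13 of the same 35 genes were higher and 6 lower (37.1% and 17.1%), against 17.1% and 36.8% of the same 13716 rows. These shares are descriptions of the libraries, and no test was made of the family as a set.

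**Figure D1:**
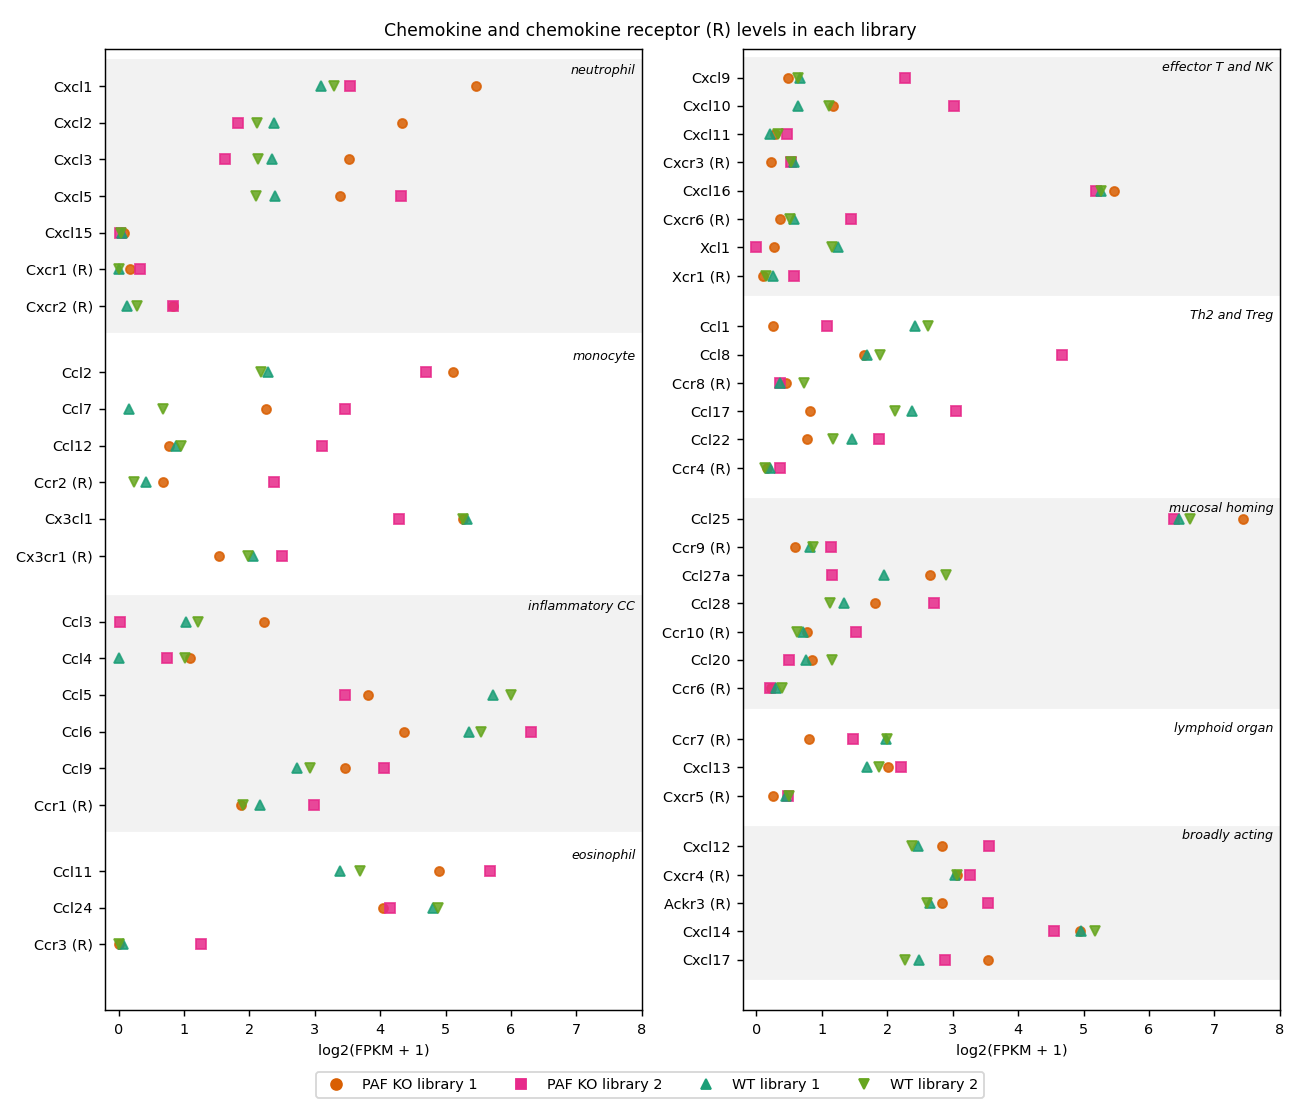
Level of 51 genes above 0 in some library, as log2(FPKM + 1), in the 4 libraries, ordered by the cell attracted; (R) marks receptors, circles and squares are PAF KO libraries 1 and 2, and triangles the WT libraries. Ccl2, Ccl7, Ccl11 and Cxcl5 have both PAF KO points to the right of both WT points, and Ccl5 has both to the left.

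The second feature was the difference between the PAF KO libraries themselves. Of the 35 tested genes, 11 were at least 1 higher on the log2 scale in PAF KO library 2 than in PAF KO library 1 (31.4%, against 11.3% of all tested rows), among them Ccl7, Ccl8, Ccl12, Ccl17, Ccr2, Cxcl9 and Cxcl10. Another 6 were at least 1 lower (17.1%, against 7.33% of all tested rows), namely Cxcl1, Cxcl2, Cxcl3, Ccl3, Ccl25 and Ccl27a. Between the WT libraries, 0 of the 35 genes differed by 1 in either direction. Few rows did at all: 0.853% of all tested rows were at least 1 higher in WT library 2 and 0.671% at least 1 lower. Because each group has 2 libraries, the difference of one PAF KO library from the WT mean, given below for the main genes, is also the fold change with the other PAF KO library left out.

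Ligands of Cxcr2, the receptor that draws neutrophils out of the blood, lie together on mouse chromosome 5. Promoters from RefSeq are shown because 3 genes of this cluster, Cxcl1, Cxcl2 and Cxcl3, were each highest in PAF KO library 1, and Cxcl10, an attractant of T cells from elsewhere on the chromosome, is set beside them as a gene with another pattern. Each is the 220 bases before the transcription start on build GRCm38.p6, which is not the build (mm9) of the expression table. The windows are chr5:90891025-90891244 for Cxcl1, chr5:90903679-90903898 for Cxcl2 and chr5:90785881-90786100 for Cxcl3, all on the plus strand, and chr5:92348890-92349109 for Cxcl10 on the minus strand. Capitals mark matches, on either strand, to GGG, any 3 bases and TTCC, a form of the site bound by NF-kappaB, the transcription factor of inflammatory signalling (called kappaB-like below), and to GAAA, any 2 bases and GAAA, a form of the interferon-stimulated response element (called ISRE-like).
Cxcl1: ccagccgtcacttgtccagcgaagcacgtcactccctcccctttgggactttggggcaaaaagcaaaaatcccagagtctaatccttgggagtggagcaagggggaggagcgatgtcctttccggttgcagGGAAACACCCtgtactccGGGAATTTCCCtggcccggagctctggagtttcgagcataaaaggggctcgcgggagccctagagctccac
Cxcl2: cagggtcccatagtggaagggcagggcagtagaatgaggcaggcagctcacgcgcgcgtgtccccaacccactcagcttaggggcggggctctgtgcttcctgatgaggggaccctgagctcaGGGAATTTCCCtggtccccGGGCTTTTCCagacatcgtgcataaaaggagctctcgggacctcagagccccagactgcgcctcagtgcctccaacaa
Cxcl3: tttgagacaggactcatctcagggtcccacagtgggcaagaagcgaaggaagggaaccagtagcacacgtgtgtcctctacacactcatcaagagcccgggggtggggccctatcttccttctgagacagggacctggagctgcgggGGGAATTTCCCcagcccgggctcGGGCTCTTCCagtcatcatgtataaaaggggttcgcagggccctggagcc
Cxcl10: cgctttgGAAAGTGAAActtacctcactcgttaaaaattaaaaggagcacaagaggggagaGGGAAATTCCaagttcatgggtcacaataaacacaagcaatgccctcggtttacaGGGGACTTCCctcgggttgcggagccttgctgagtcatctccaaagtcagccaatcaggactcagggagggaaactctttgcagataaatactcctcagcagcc

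The promoters of Cxcl1, Cxcl2 and Cxcl3 each held the 10 letters GGGAATTTCC, beginning 71, 97 and 73 bases before the start, with an overlapping match on the other strand, and each held a further match nearby. Cxcl10 held a pair of other kappaB-like matches, beginning 159 and 104 bases before the start, and 1 ISRE-like match, beginning 213 bases before it. Among RefSeq promoters of 300 bases, which run from 250 bases before to 50 after the start, 5.56% of 32851 held a kappaB-like match and 3.44% an ISRE-like match. Of the 41 chemokine system genes with an entry, 9 held the first (Ccl1, Ccl9, Ccl20, Ccr3, Ccr6, Cxcl1, Cxcl2, Cxcl3 and Cxcl10) and 3 the second (Ccl19, Cxcl10 and Cxcl14). The other 16 had no entry, among them Ccl2, Ccl5, Ccl7, Ccl11 and Cxcl5, and their promoters were not examined. Counted by promoter, as the shares of all promoters are, 9 and 3 of the 45 promoters of the 41 genes held a match. These matches describe the letters and were not tested for binding.

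Among the neutrophil attractants, Cxcl1 read 43.3 and 10.6 FPKM in the PAF KO libraries, against 7.58 and 8.77 FPKM in the WT libraries. Both PAF KO values were above both WT values, but library 2 only narrowly, and the log2 fold change of 1.31 (SE 0.720, limma adjusted p = 0.484) was made of 2.27 in library 1 and 0.34 in library 2. Cxcl2, a closely related ligand of the same receptor, read 19.3 and 2.53 FPKM in the PAF KO libraries, against 4.19 and 3.34 FPKM in the WT libraries. Cxcl3 read 10.5 and 2.08 FPKM in the PAF KO libraries, against 4.08 and 3.40 FPKM in the WT libraries. Cxcl2 and Cxcl3 were thus high in PAF KO library 1 and below both WT libraries in PAF KO library 2, so their groups overlapped.

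Cxcl5, which is made by epithelial cells and binds the same receptor, went the other way between the PAF KO libraries. It read 9.45 and 19.0 FPKM in the PAF KO libraries, against 4.27 and 3.29 FPKM in the WT libraries. The groups did not overlap, and the log2 fold change was 1.61 (SE 0.388, limma adjusted p = 0.300), with 1.14 in library 1 and 2.08 in library 2. Summed over Cxcl1, Cxcl2, Cxcl3 and Cxcl5, Cxcr2 ligands came to 82.5 and 34.2 FPKM in the PAF KO libraries, against 20.1 and 18.8 FPKM in the WT libraries. Cxcl15, an attractant known mainly from mouse lung, was at most 0.0617 FPKM in any library.

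The receptors of these ligands were scarce. Cxcr2 read 0.774 and 0.789 FPKM in the PAF KO libraries, about 36 and 59 fragments, against 0.0970 and 0.219 FPKM in the WT libraries, about 4 and 12 fragments. Cxcr1, the related neutrophil receptor, read 0.129 and 0.258 FPKM in the PAF KO libraries and was listed at 0 in both WT libraries. Both receptors had a mean under 1 FPKM and were not tested, and for both the groups did not overlap. Of 12 neutrophil markers, 8 were tested and limma called 0 (3 higher and 1 lower at an unadjusted p under 0.05), with 3 higher in both PAF KO libraries and 3 lower in both. Among all tested rows, 3.44% were higher and 9.76% lower at that p, and 21.5% were higher in both and 30.2% lower in both. The calcium-binding proteins S100a8 and S100a9, abundant in neutrophils, and the growth factor receptor Csf3r were the 3 higher ones, with log2 fold changes of 2.47, 2.36 and 1.21. The protease Mmp9, the decoy receptor Il1r2 and the granule protein Ltf were the 3 lower ones, with -0.61, -0.35 and -0.21, while the granule protein genes Mpo and Elane were at most 0.192 FPKM in any library. The summed markers came to 479.7 and 295 FPKM in the PAF KO libraries and 340.2 and 398 FPKM in the WT libraries, and Lcn2, which epithelial cells also make, was the largest term in each. In bulk tissue, fewer cells of a type and less RNA per cell cannot be told apart, and the part of cell numbers in these values was not tested.

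Ligands of Ccr2, the receptor by which inflammatory monocytes leave the bone marrow and enter tissue, were led by Ccl2. Ccl2 read 33.4 and 24.9 FPKM in the PAF KO libraries, about 560 and 666 fragments, against 3.89 and 3.53 FPKM in the WT libraries, about 57 and 69 fragments. The group mean was 29.2 ± 6.04 FPKM in PAF KO and 3.71 ± 0.252 FPKM in WT (SD, n = 2 each), a ratio of 7.86. Its log2 fold change of 2.67 (SE 0.214) was close in both PAF KO libraries, 2.87 and 2.46, and had the smallest adjusted p of the family in limma, 0.175, which did not pass. Ccl7, its neighbour, read 3.79 and 10.1 FPKM in the PAF KO libraries, against 0.116 and 0.610 FPKM in the WT libraries, where it rested on about 1 and 9 fragments. The log2 fold change of Ccl7 was 2.44 (SE 0.514, limma adjusted p = 0.281), with 1.84 in library 1 and 3.04 in library 2, and the groups did not overlap. With pseudocounts of 0.1 and 0.01 it was 4.01 and 4.47.

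Ccl12, the remaining Ccr2 ligand of the mouse, behaved otherwise. It read 0.715 and 7.62 FPKM in the PAF KO libraries, against 0.829 and 0.937 FPKM in the WT libraries, so only PAF KO library 2 stood apart. Ccr2 read 0.595 and 4.19 FPKM in the PAF KO libraries, against 0.343 and 0.184 FPKM in the WT libraries. Both PAF KO values were above both WT values, with a log2 difference from the WT mean of 0.34 in library 1 and 2.04 in library 2. With pseudocounts of 0.1 and 0.01 the log2 fold change of Ccr2, 1.19 with a pseudocount of 1, was 2.28 and 2.61. Ly6c2, a surface marker of inflammatory monocytes, showed the same order, with 2.29 and 13.7 FPKM in the PAF KO libraries, against 1.04 and 1.22 FPKM in the WT libraries. Of 12 tested monocyte and macrophage markers, limma called 0 (1 at an unadjusted p under 0.05), 4 were higher in both PAF KO libraries and 1, Cd68, was lower in both. The shares of all tested rows were 21.5% higher in both and 30.2% lower in both, and 3.44% higher and 9.76% lower at that p. The summed level of all 13 in the table was 198 and 418 FPKM in the PAF KO libraries, against 238 and 242 FPKM in the WT libraries, and its part in the values of Ccr2 and Ccl12 was not tested.

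Cx3cl1, a membrane-bound chemokine of epithelium and endothelium that binds Cx3cr1 on tissue macrophages and patrolling monocytes, read 37.6 and 18.5 FPKM in the PAF KO libraries, against 39.0 and 37.5 FPKM in the WT libraries. Library 1 lay within the WT span and library 2 below it. Cx3cr1 read 1.90 and 4.68 FPKM in the PAF KO libraries, against 3.16 and 2.93 FPKM in the WT libraries, with the PAF KO libraries on either side of the WT pair. Exons of Gm33858 overlap Cx3cr1 on the other strand.

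Inflammatory CC ligands, which draw macrophages and activated T cells through Ccr1 and related receptors, held the clearest lower value of the family. Ccl5, made mainly by cytotoxic T cells and NK cells, read 13.1 and 10.1 FPKM in the PAF KO libraries, about 134 and 164 fragments, against 52.0 and 62.9 FPKM in the WT libraries, about 464 and 749 fragments. The mean was 11.6 ± 2.12 FPKM in PAF KO and 57.5 ± 7.74 FPKM in WT (SD, n = 2 each), so the WT mean was 4.97 times as high. The log2 fold change was -2.22 (SE 0.217, limma adjusted p = 0.182), with -2.05 and -2.39 in the PAF KO libraries, and the groups did not overlap. Of 8 tested markers of T and NK cells, limma called 0. At an unadjusted p under 0.05, 5 were lower (9.76% of all tested rows were), and 6 were lower in both PAF KO libraries (30.2% of all tested rows were). The summed level of all 15 listed, of which Trac was at most 0.000298 FPKM, was 41.7 and 48.7 FPKM in PAF KO, against 91.8 and 88.6 FPKM in WT. Gzmb, a granzyme of the same cytotoxic cells, had a log2 fold change of -1.11. The part of T and NK cell number in the level of Ccl5 was not tested.

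The other inflammatory CC ligands did not follow Ccl5. Ccl9, a macrophage inflammatory protein of the mouse, read 10.01 and 15.6 FPKM in the PAF KO libraries, against 5.60 and 6.64 FPKM in the WT libraries, with a log2 fold change of 0.93 (SE 0.274, limma adjusted p = 0.331) and no overlap. Its neighbour Ccl6, also a product of myeloid cells, read 19.6 and 77.8 FPKM in the PAF KO libraries, against 40.1 and 45.7 FPKM in the WT libraries, on either side of the WT pair. Ccl3 read 3.66 and 0.0116 FPKM in the PAF KO libraries, against 1.05 and 1.33 FPKM in the WT libraries. Ccl4 was at most 1.14 FPKM, had a value of 8.25e-05 FPKM in WT library 1 and was not tested. The receptor Ccr1 read 2.67 and 6.91 FPKM in the PAF KO libraries, against 3.48 and 2.74 FPKM in the WT libraries. It was above the WT span in PAF KO library 2 and below it in library 1.

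**Figure D2:**
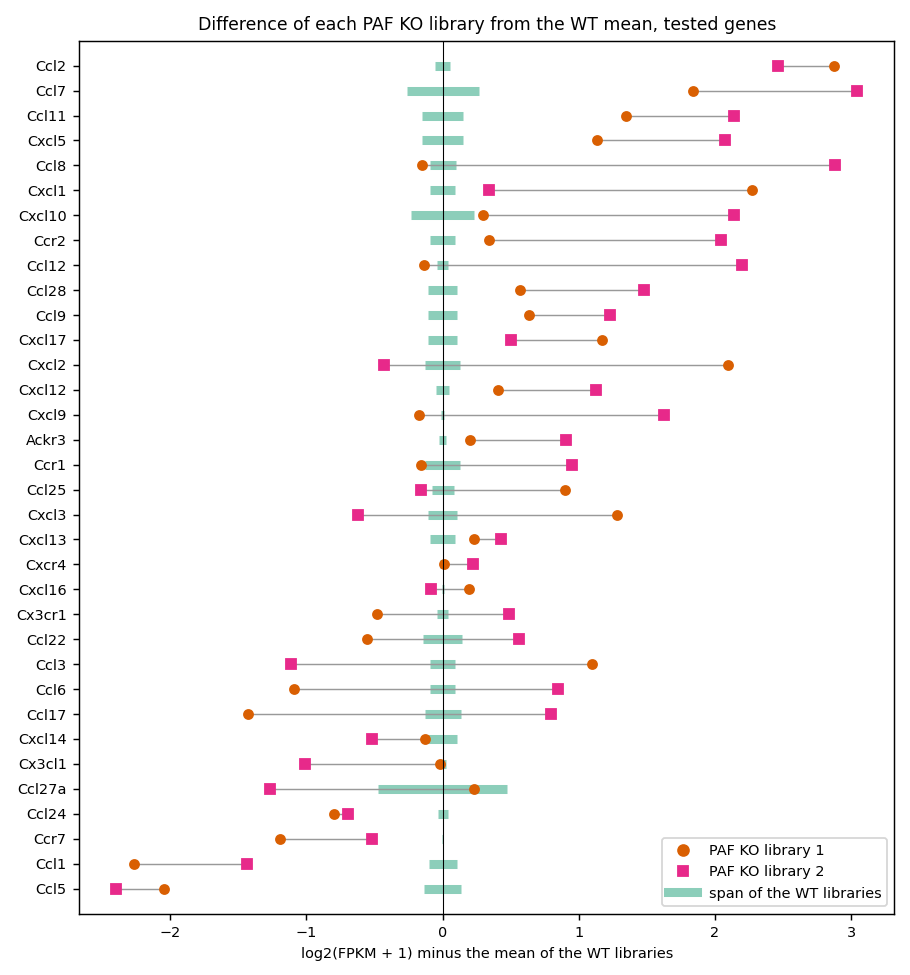
Difference of PAF KO library 1 (circles) and PAF KO library 2 (squares) from the mean of the WT libraries, on the log2(FPKM + 1) scale, for 34 tested genes in the order of their fold change; green bars span the WT libraries. Ccl2 (2.87 and 2.46) and Ccl5 (-2.05 and -2.39) have short lines, and Ccl8 (-0.15 and 2.88) and Cxcl2 (2.09 and -0.43) have long ones.

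The eosinophil attractants, which act through Ccr3, lay in opposite directions. Ccl11, also called eotaxin, read 28.7 and 50.4 FPKM in the PAF KO libraries, against 9.51 and 11.9 FPKM in the WT libraries. Its log2 fold change was 1.74 (SE 0.340, limma adjusted p = 0.268), and both PAF KO libraries were above both WT libraries. Ccl24, another eotaxin, which is named here after its values were seen, read 15.5 and 16.7 FPKM in the PAF KO libraries, against 26.9 and 28.4 FPKM in the WT libraries. Its log2 fold change was -0.74 (SE 0.154, limma adjusted p = 0.279), again without overlap. Ccr3 read 1.38 FPKM in PAF KO library 2 and at most 0.0449 FPKM in the other 3 libraries, with PAF KO library 1 and WT library 2 listed at 0. Of 6 eosinophil markers in the table, 3 were tested and for all 3 the groups overlapped. Epx, the eosinophil peroxidase, was at most 0.0208 FPKM and Ear1 was listed at 0. All 6 tested fibroblast markers, of a cell type known to make Ccl11 and Cxcl12, were higher in both PAF KO libraries (21.5% of all tested rows were), with a summed level of 333 and 685 FPKM, against 262 and 266 FPKM in the WT libraries. Limma called 0 of them, and 1 was higher at an unadjusted p under 0.05 (3.44% of all tested rows were). All 4 smooth muscle markers and 4 of 5 endothelial markers were also higher in both, with 1 endothelial marker lower. Limma called 0 of these, with 0 and 2 higher at an unadjusted p under 0.05. The part of these cell types in the level of Ccl11 was not tested.

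Attractants of effector T cells and NK cells through Cxcr3 are induced by interferon gamma. Cxcl9 read 0.396 and 3.85 FPKM in the PAF KO libraries, against 0.586 and 0.557 FPKM in the WT libraries. Cxcl10 read 1.24 and 7.07 FPKM in the PAF KO libraries, against 0.561 and 1.15 FPKM in the WT libraries. Exons of Art3 overlap Cxcl10 on the other strand, and without knowledge of strand their reads cannot be told apart. Both genes stood out in PAF KO library 2, by 1.63 for Cxcl9 and 2.14 for Cxcl10 on the log2 scale, while in library 1 Cxcl9 lay below the WT pair and Cxcl10 just above it. Ifng itself read 0.626 FPKM in PAF KO library 2 and at most 0.0686 FPKM in the other 3. Cxcl11, which RefSeq lists as a transcribed pseudogene in the reference strain, was at most 0.390 FPKM, and the receptor Cxcr3 was at most 0.490 FPKM.

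Cxcl16, a membrane-bound ligand of Cxcr6 that also takes up oxidised lipids, differed little between groups. It read 43.2 and 35.4 FPKM in the PAF KO libraries, against 37.7 and 37.3 FPKM in the WT libraries, with a log2 fold change of 0.057 (SE 0.180), and exons of Zmynd15 overlap it on the other strand. Its receptor Cxcr6 read 0.281 and 1.73 FPKM in the PAF KO libraries, against 0.489 and 0.430 FPKM in the WT libraries. Xcl1, through which NK and CD8 T cells call cross-presenting dendritic cells, read 0.199 FPKM in PAF KO library 1 and was listed at 0 in PAF KO library 2, against 1.39 and 1.22 FPKM in the WT libraries, about 10 and 11 fragments. Its groups did not overlap, at levels too low to be tested here, and exons of Gm20743 overlap Xcl1 on the other strand. Its receptor Xcr1 was at most 0.488 FPKM.

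Ligands linked to type 2 helper and regulatory T cells differed in pattern. Ccl1, a ligand of Ccr8, read 0.197 and 1.12 FPKM in the PAF KO libraries, against 4.34 and 5.17 FPKM in the WT libraries. The log2 fold change of Ccl1 was -1.85 (SE 0.364, limma adjusted p = 0.271), with -2.26 in library 1 and -1.44 in library 2 and no overlap, and the WT mean was 7.21 times as high. Mast cells, which can release Ccl1, had 9 tested markers, of which limma called 0. At an unadjusted p under 0.05, 6 were lower (9.76% of all tested rows were), and 7 were lower in both PAF KO libraries (30.2% of all tested rows were). The summed level of the 9 markers was 1436 and 1189 FPKM in the PAF KO libraries, against 2862 and 3257 FPKM in the WT libraries, and its part in the level of Ccl1 was not tested. Ccl8, which in the mouse also signals through Ccr8, read 2.13 and 24.5 FPKM in the PAF KO libraries, against 2.24 and 2.70 FPKM in the WT libraries. It was high in PAF KO library 2 only, by 2.88 on the log2 scale. Ccl17 read 0.766 and 7.25 FPKM in the PAF KO libraries, against 4.22 and 3.34 FPKM in the WT libraries, and Ccl22, the other ligand of Ccr4, read 0.702 and 2.68 FPKM, against 1.76 and 1.26 FPKM. Both lay below the WT pair in PAF KO library 1 and above it in PAF KO library 2. The receptors Ccr4 and Ccr8 were at most 0.290 and 0.653 FPKM.

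**Figure D3:**
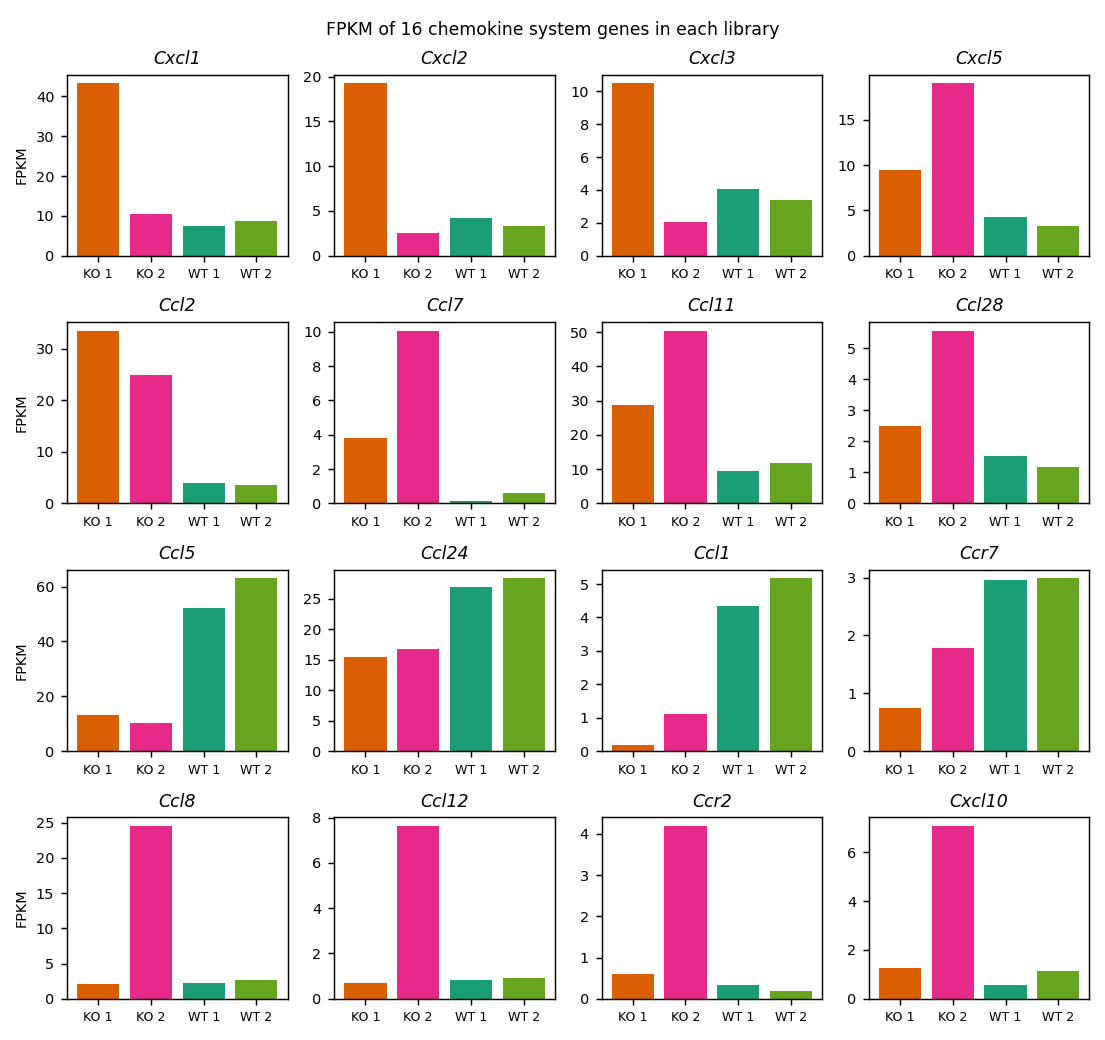
FPKM of 16 genes in PAF KO libraries 1 and 2 (KO 1, KO 2) and WT libraries 1 and 2, each panel on its own axis from 0. In the second row Ccl2, Ccl7, Ccl11 and Ccl28 are higher in both PAF KO libraries, in the third row Ccl5, Ccl24, Ccl1 and Ccr7 are lower in both, and in the fourth row Ccl8, Ccl12, Ccr2 and Cxcl10 stand out in PAF KO library 2.

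In order along mouse chromosome 11, with 0 protein-coding genes between them in RefSeq, lie Ccl2, Ccl7, Ccl11, Ccl12, Ccl8 and Ccl1. The first 3 were higher in both PAF KO libraries than in both WT libraries, Ccl12 and Ccl8 were high in PAF KO library 2 alone, and Ccl1 was lower in both. Ccl5, Ccl9, Ccl6, Ccl3 and Ccl4 form a second run, separated from the first by 25 genes. There the groups did not overlap for Ccl5 (lower) and Ccl9 (higher), and they overlapped for the other 3.

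Chemokines that bring lymphocytes to the intestinal mucosa ranged widely in level and had no shared direction. Ccl25, the epithelial ligand that draws Ccr9-bearing T cells to the small intestine, read 173 and 82.4 FPKM in the PAF KO libraries, against 87.0 and 97.5 FPKM in the WT libraries. PAF KO library 1 was above the WT pair and library 2 just below it, and exons of Elavl1 overlap the gene on the other strand. Ccr9 read 0.505 and 1.20 FPKM in the PAF KO libraries, against 0.772 and 0.828 FPKM in the WT libraries. Exons of Slc6a20a, on the other strand, and of Gm17200, on the same strand, overlap Ccr9. Ccl28, which draws IgA-producing plasma cells through Ccr10, read 2.50 and 5.57 FPKM in the PAF KO libraries, against 1.54 and 1.19 FPKM in the WT libraries. Its log2 fold change was 1.03 (SE 0.386, limma adjusted p = 0.389), with 0.57 in library 1 and 1.48 in library 2, without overlap. Ccr10 read 0.703 and 1.88 FPKM in the PAF KO libraries, against 0.634 and 0.545 FPKM in the WT libraries, likewise without overlap. Jchain, the joining chain of IgA made by plasma cells, read 190.2 and 839 FPKM in the PAF KO libraries, against 239 and 226 FPKM in the WT libraries, and its part in the value of Ccr10 was not tested. Of 5 tested markers of B and plasma cells, limma called 0 (0 at an unadjusted p under 0.05), 1, the B cell receptor component Cd79a, was higher in both PAF KO libraries and 1, Sdc1, which epithelial cells also make, was lower in both, and Jchain overlapped. Over all tested rows, 21.5% were higher in both and 30.2% lower in both. The summed level of the 8 in the table was 347 and 1056 FPKM in the PAF KO libraries, against 475 and 449 FPKM in the WT libraries.

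Ccl20, by which the epithelium over lymphoid follicles attracts Ccr6-bearing cells, read 0.798 and 0.417 FPKM in the PAF KO libraries, against 0.694 and 1.22 FPKM in the WT libraries, and the groups overlapped. Ccr6 was at most 0.306 FPKM and was lower in both PAF KO libraries, on 4 to 10 fragments per library. Ccl27a, a skin-associated ligand of Ccr10, read 5.32 and 1.23 FPKM in the PAF KO libraries, against 2.88 and 6.46 FPKM in the WT libraries. It has near-identical copies and overlaps Il11ra1 on the other strand, so its values are uncertain.

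Of the genes that organise lymphoid tissue, Ccr7, which takes dendritic cells and naive T cells to lymph nodes, read 0.737 and 1.78 FPKM in the PAF KO libraries, against 2.95 and 2.99 FPKM in the WT libraries. Its log2 fold change was -0.85 (SE 0.314, limma adjusted p = 0.388), with -1.19 in library 1 and -0.51 in library 2 and no overlap. Cxcl13, the attractant of B cells, read 3.04 and 3.62 FPKM in the PAF KO libraries, against 2.23 and 2.65 FPKM in the WT libraries, without overlap and with a log2 fold change of 0.33 (SE 0.204). Its receptor Cxcr5 was at most 0.405 FPKM, and exons of Bcl9l overlap Cxcr5 on the other strand.

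Cxcl12, a stromal chemokine that acts on many cell types, read 6.14 and 10.8 FPKM in the PAF KO libraries, against 4.57 and 4.20 FPKM in the WT libraries. The log2 fold change was 0.77 (SE 0.307, limma adjusted p = 0.402), with 0.41 in library 1 and 1.13 in library 2, without overlap. Its signalling receptor Cxcr4 read 7.34 and 8.65 FPKM in the PAF KO libraries, against 7.19 and 7.37 FPKM in the WT libraries, and overlapped. Its scavenging receptor, listed as Cxcr7 and now named Ackr3, read 6.12 and 10.6 FPKM in the PAF KO libraries, against 5.30 and 5.09 FPKM in the WT libraries, and did not overlap. Cxcl14, an epithelial chemokine, read 29.7 and 22.4 FPKM in the PAF KO libraries, against 30.2 and 35.0 FPKM in the WT libraries, with both PAF KO values the lower. Cxcl17, a mucosal attractant of myeloid cells, read 10.7 and 6.34 FPKM in the PAF KO libraries, against 4.58 and 3.82 FPKM in the WT libraries, with both PAF KO values the higher. Ackr3 and Cxcl17 are named after their values were seen.

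Over all roles, ligands and receptors differed in level. Of 19 receptors, 7 reached the mean for testing, and 8 were under 1 FPKM in every library, while 28 of 38 ligands reached that mean. Without a filter, 5 receptors were higher in both PAF KO libraries (Cxcr1, Cxcr2, Ccr2, Ccr10 and Ackr3) and 3 were lower in both (Cxcr3, Ccr6 and Ccr7). These are 26.3% and 15.8% of the receptors, against 21.3% and 24% of all rows above 0. For Cxcr3 the margin was slight: 0.437 FPKM in PAF KO library 2, about 18 fragments, against 0.443 FPKM in WT library 2, about 14. Of the 38 ligands, 11 were higher and 5 lower, or 28.9% and 13.2%. The 38 include the 5 genes listed at 0 in every library, which could be neither. Both ligand shares are therefore understated beside the 21.3% and 24% of all rows above 0.

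**Figure D4:**
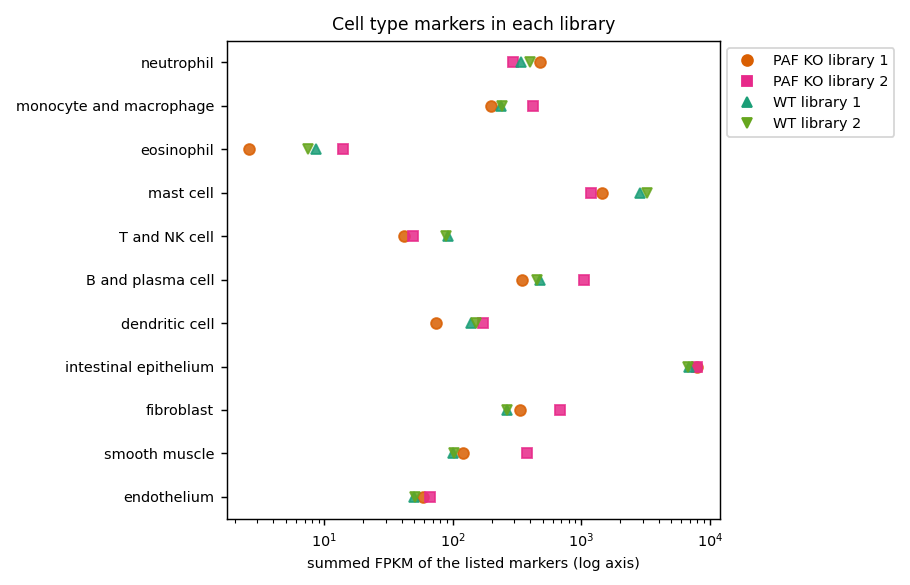
Summed FPKM (log axis) of the markers of 11 cell types in each library; circles and squares are PAF KO libraries 1 and 2, and triangles the WT libraries. T and NK cell markers (41.7 and 48.7 FPKM in PAF KO, 91.8 and 88.6 FPKM in WT) and mast cell markers lie lower in both PAF KO libraries, and fibroblast and smooth muscle markers lie higher, most of all in PAF KO library 2.

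Other genes of chemokine handling and induction were described beside the family. Of 3 tested atypical and scavenging receptors, which bind chemokines without signalling to G proteins, all 3 were higher in both PAF KO libraries, Ackr1 by 0.91, Ackr3 by 0.55 and Ccrl2 by 0.53 on the log2 scale, and 0 were called by limma (0 also at an unadjusted p under 0.05). Ackr3 is also counted in the family, and 21.5% of all tested rows were higher in both PAF KO libraries. The platelet chemokine Pf4 was higher in both PAF KO libraries by 0.33, while Ppbp, the other of the 2 tested, overlapped. Of 4 tested receptors and ligands of other attractants, 1, the complement receptor C5ar1, was higher in both by 0.20 and limma called 0 of both groups (0 at an unadjusted p under 0.05). Of 9 tested genes of signal transduction, 1 was higher and 4 were lower in both, where 21.5% and 30.2% of all tested rows were. Limma called 0, and 2 had an unadjusted p under 0.05 and were lower, as were 9.76% of all tested rows, Rac2 (log2 fold change -0.63) and Arrb2 (-0.83). Of 12 tested upstream inducers, 6 were higher and 2 were lower in both, where 21.5% and 30.2% of all tested rows were. After rescaling to one total, 4 were higher and 2 lower, where 17.1% and 36.8% of all tested rows were. With the values as deposited, limma called 0, and 3 had an unadjusted p under 0.05 and were higher, as were 3.44% of all tested rows. The 2 lower ones were subunits of NF-kappaB itself: Rela read 35.1 and 20.8 FPKM in the PAF KO libraries, against 44.5 and 49.9 FPKM in the WT libraries (log2 fold change -0.78), and Nfkb1 had a log2 fold change of -0.27. Il1b, a cytokine that induces Ccl2 and Cxcr2 ligands, read 26.4 and 17.3 FPKM in the PAF KO libraries, against 5.44 and 5.42 FPKM in the WT libraries. Il6 read 10.9 and 3.55 FPKM in the PAF KO libraries, against 0.623 and 0.740 FPKM in the WT libraries, and Nfkbiz, a nuclear cofactor of NF-kappaB, read 17.9 and 17.9 FPKM, against 10.5 and 8.80 FPKM. Tnf, another inducer, read 3.95 and 2.14 FPKM in the PAF KO libraries, against 3.38 and 2.81 FPKM in the WT libraries, and overlapped.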

How the data were processed

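The deposited table held FPKM values, which the authors had scaled for transcript length and mapped fragments. The submitters' processing notes name TopHat2, Cuffdiff and build mm9, while versions, settings, annotation and strandedness were not stated. It held 29955 rows, of which 84 repeated a symbol (the row of higher mean was kept). Symbols were matched to RefSeq (GRCm38.p6), 56 of the 57 genes by current symbol and 1 by synonym. The test was run in limma 3.58.1 (R 4.3.3) after adding a pseudocount of 1 to FPKM and taking log2, for genes averaging 1 FPKM or more, with a variance trend. Benjamini-Hochberg adjustment ran over all 13716 tested rows, with a threshold of 0.05. Fold changes on this scale understate changes of low genes. Depth was taken from the lowest common value of FPKM times length among genes with 1 GENCODE transcript of at least 1000 bases, and fragment numbers are estimates from it. The procedure was tested on simulated data. It recovered 0% of added log2 changes of 1, 29.6% of changes of 2 and 52.8% of changes of 3, so it misses many changes of these sizes.

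The genes, their grouping and the lists were chosen with earlier results of these data known. Full values were given by rule for a list of genes reaching 1 FPKM in some library and for tested genes with a log2 fold change of at least 1 and no overlap. One gene counted among the 57 is not reported here. Alternatives were other pseudocounts, filters, scalings, variance models, a replicate block and leaving out each library.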

Additional observations from a re-analysis of the deposited data

How the results depend on the processing

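With 2 libraries per group, the number of calls turned on which library was left out: limma called 0 to 8397 of all rows (10 with all libraries; 0 without either WT library, 8397 without PAF KO library 1, 2833 without library 2) and 0 to 26 of the chemokine system genes (0 with all libraries). The numbers of tested genes without overlap ran from 14 to 23 (higher) and from 6 to 13 (lower), against 13 and 5, since fewer libraries overlap less often. With no filter 4 rows were called. Of the family, 16 genes were then higher and 8 lower, where 21.3% and 24% of all rows above 0 were. At a mean of at least 5 FPKM, 8 genes were higher and 3 lower, the number of genes examined having changed. The share of all rows was not counted with that filter or with a library left out, so those numbers have no background. With a replicate block, 13 rows and 0 of the family were called. Same-numbered libraries deviated in opposite ways (r = -0.115), so a crossed replicate block was added after seeing the data, and it also called 13 rows and 0 of the family.

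Other filters, variance models and the replicate block cannot move a fold change, so only other pseudocounts and scalings could turn one. Of 264 fold changes of 31 genes under 9 other settings, 255 kept their direction and none became significant. The others turned: Cx3cr1 (-0.023, -0.028 and -0.11) and Ccl22 (-0.089, -0.11 and -0.12) with pseudocounts of 0.1 and 0.01 and after rescaling to one total, Cxcl16 (-0.058) after rescaling, and Ccl3 (0.049 and 0.40) after median centring and quantile normalization. With pseudocounts of 0.1 and 0.01, values of low genes moved by over 1.5 times without turning: Ccl3 to -0.98 and -2.08, Ccl17 to -0.61 and -0.67 and Ccr7 to -1.29 and -1.37, and at 0.01 Cxcl9 to 1.11 and Cxcl10 to 1.87. A pseudocount of 1 understates changes of low genes, as said above. The value of Ccl3 in PAF KO library 2, 0.0116 FPKM, rested on an estimated 0 fragments. With each library left out in turn, 13 genes turned, with log2 fold changes of -0.43 to 2.09 for Cxcl2, -0.62 to 1.28 for Cxcl3, -0.13 to 2.20 for Ccl12, -0.48 to 0.49 for Cx3cr1, -1.11 to 1.09 for Ccl3, -1.09 to 0.85 for Ccl6, -0.16 to 0.95 for Ccr1, -0.17 to 1.63 for Cxcl9, -0.083 to 0.20 for Cxcl16, -0.15 to 2.88 for Ccl8, -1.43 to 0.79 for Ccl17, -0.55 to 0.56 for Ccl22 and -0.16 to 0.90 for Ccl25. Depth limits the scarce receptors: Cxcr2 rested on 4 to 59 fragments per library.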
